A study of Mus musculus with 3 samples.

Results

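The endothelin, angiotensin and nitric oxide genes of the heart were followed in RNA from 3 libraries of mouse cardiac fibroblasts. Of 10 genes listed, the ligand Edn1, the receptor Ednrb, the converting enzyme Ece1, the angiotensin precursor Agt, its receptor Agtr1a, the synthase Nos2 and the vasodilator peptide Adm were each the single entry at their genomic locus, so 7 of 10 could be read as genes among 31930 entries. Ednra, Ace and Nos3 lie at loci that several entries share, and those 3 are described by entry only. The genes were listed by name, with earlier results of these data known.

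The libraries were the C57/BL6 strain at an age of 12 weeks, 1 library for each group. The first, labelled uninjured, came from WT mice without infarction, and its cells were held on plastic for 4 h before RNA was taken. The second, labelled FSP1+, came from FSP1-GFP transgenic mice at day 10 after infarction, where GFP under the FSP1 promoter marked the cells to sort and cells with CD45 or CD31 at the surface were gated out. The third, labelled aSMA+, came from aSMA-GFP transgenic mice at the same day and was sorted on GFP alone, without a gate against blood or endothelial cells. According to the methods, each sort used several hearts together, and all 3 preparations began with enzyme digestion of the ventricles. Injury, transgene, sorting and plating therefore differ together between the sorted libraries and the uninjured one and cannot be told apart.

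With 1 library per group there was no replicate error, and no test, SD or p-value could be given. Levels are FPKM, fragments per kilobase of transcript scaled for the number mapped. Each table of 2 libraries carries a scaling of its own, so the FPKM of a library differs between its tables. Ratios are the log2 of FPKM with 1 added to both libraries, taken within the single table that compares them, wherever either of them reached 1 FPKM. A gene is counted as higher or lower where that ratio reached 2-fold. The number of reads in each library was not given in the tables, so counting error is unknown. All 7 genes passed the FPKM minimum in every comparison.

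The transcripts of the reporter genes were read first as a check of the labels. S100a4, which encodes FSP1, was 30.8 FPKM in the library labelled FSP1+ against 12.0 in the library labelled aSMA+. Acta2, which encodes aSMA, was 279.8 in FSP1+ against 65.0 in aSMA+, and 77.1 in aSMA+ against 95.4 in uninjured, which goes against the label aSMA+. FSP1+, aSMA+ and uninjured therefore stand below for the libraries labelled so. Of 12 fibroblast markers listed, 9 had an entry, and none was at 0. In FSP1+ 7 of the 9 lay 2-fold or more below uninjured, beside 16% of all entries kept. In aSMA+ 4 of the 9 did, beside 7.11%. Between the sorted libraries the list was split, with 4 of the 9 higher and 3 lower in FSP1+ than in aSMA+, beside 19.1% and 14.5%. Col1a1 was 900 in FSP1+ against 266 in aSMA+, and Pdgfra was 16.5 against 323.

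Endothelins are peptides that constrict vessels. They are released by a converting enzyme and act through receptor A on smooth muscle and through receptor B, which in endothelium also drives nitric oxide release. Angiotensinogen is the precursor of angiotensin II, which raises blood pressure and promotes scarring of the infarcted heart through the type 1 receptor. Nitric oxide, made from arginine by the endothelial synthase Nos3 or the inducible synthase Nos2, and the peptide adrenomedullin oppose that constriction.

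The promoters of Ednrb, Ece1 and Adm are shown because, with 1 FPKM added, these 3 genes exceeded the uninjured library by 2-fold or more in both sorted ones. Each run is the 250 bases before a start site in RefSeq on GRCm38.p6, written 5′ to 3′ on the strand of the gene. Capitals mark the matches found on either strand to GCGTG, a core form of the hypoxia response element (read here as its reverse complement), and to the TATA box TATAA.
Ednrb (chr14:103843702-103843951, minus strand): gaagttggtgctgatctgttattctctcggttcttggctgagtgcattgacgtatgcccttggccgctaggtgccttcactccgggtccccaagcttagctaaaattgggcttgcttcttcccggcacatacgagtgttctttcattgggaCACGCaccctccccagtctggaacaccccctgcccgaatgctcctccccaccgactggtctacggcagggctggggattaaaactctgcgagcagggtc
Ece1 (chr4:137861987-137862236, plus strand): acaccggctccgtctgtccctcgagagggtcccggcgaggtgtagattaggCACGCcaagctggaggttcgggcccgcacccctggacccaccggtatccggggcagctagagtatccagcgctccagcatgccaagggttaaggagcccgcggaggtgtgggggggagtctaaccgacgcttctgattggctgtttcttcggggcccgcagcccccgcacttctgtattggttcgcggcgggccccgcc
Adm (chr7:110627407-110627656, plus strand): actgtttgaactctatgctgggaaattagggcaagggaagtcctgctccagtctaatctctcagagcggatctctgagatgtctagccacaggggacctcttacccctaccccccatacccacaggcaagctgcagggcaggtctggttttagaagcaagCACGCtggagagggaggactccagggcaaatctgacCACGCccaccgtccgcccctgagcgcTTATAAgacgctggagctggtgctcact

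The Ednrb run lies inside the span of the deposited entry, in an intron of a longer GENCODE M21 transcript. Ece1 has 4 start sites in RefSeq and the first, where the deposited entry begins, is shown. GCGTG occurred 1 time in the Ednrb run, 99 to 95 bases before the start, and 1 time in the Ece1 run, 199 to 195 bases before it. The Adm run held it 2 times, at 90 to 86 and at 54 to 50 bases before the start. The capitals nearest to the Adm start are 2 overlapping matches to TATAA, 1 on each strand, between 28 and 23 bases before it. Over 32851 RefSeq promoters of the same length, 28.2% held GCGTG and 22.8% held TATAA. The other motifs searched on both strands were the hypoxia core ACGTG (16.6% of all promoters), AP-1 as TGANTCA (6.75%), GATA as GATAA (22.6%) and the NF-kB site (1.41%), and no match to these occurred in the 3 runs shown. Upstream of the third Ece1 start site, not shown, ACGTG matched on both strands, GCGTG matched 2 times and the NF-kB site matched 1 time. The promoters of Edn1, Ednra, Agt and Ace, searched but not shown, held no match to GCGTG. A match describes the sequence and not a bound site.

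Against the uninjured library, FSP1+ had 5 of the 7 genes higher by 2-fold or more, none lower by that fold, and a median log2 ratio of 1.43 over the 7. Of all 17578 entries kept in this comparison, 14.6% were higher by that fold and 16% lower (30.6% in either direction), and the median was 0.02. In aSMA+, 3 genes were higher and 1 was lower than in the uninjured library, with a median of 0.87, where 17% of 17204 entries were higher and 7.11% lower (24.1% in either direction), with a median of 0.05. Between the sorted libraries, 2 genes were higher in FSP1+ than in aSMA+ and none was lower, with a median of 0.08, where 19.1% of 16374 entries were higher and 14.5% lower (33.7% in either direction), with a median of 0.04. Every pair of comparisons shares a library, so the 3 counts are not separate evidence.

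**Figure D1:**
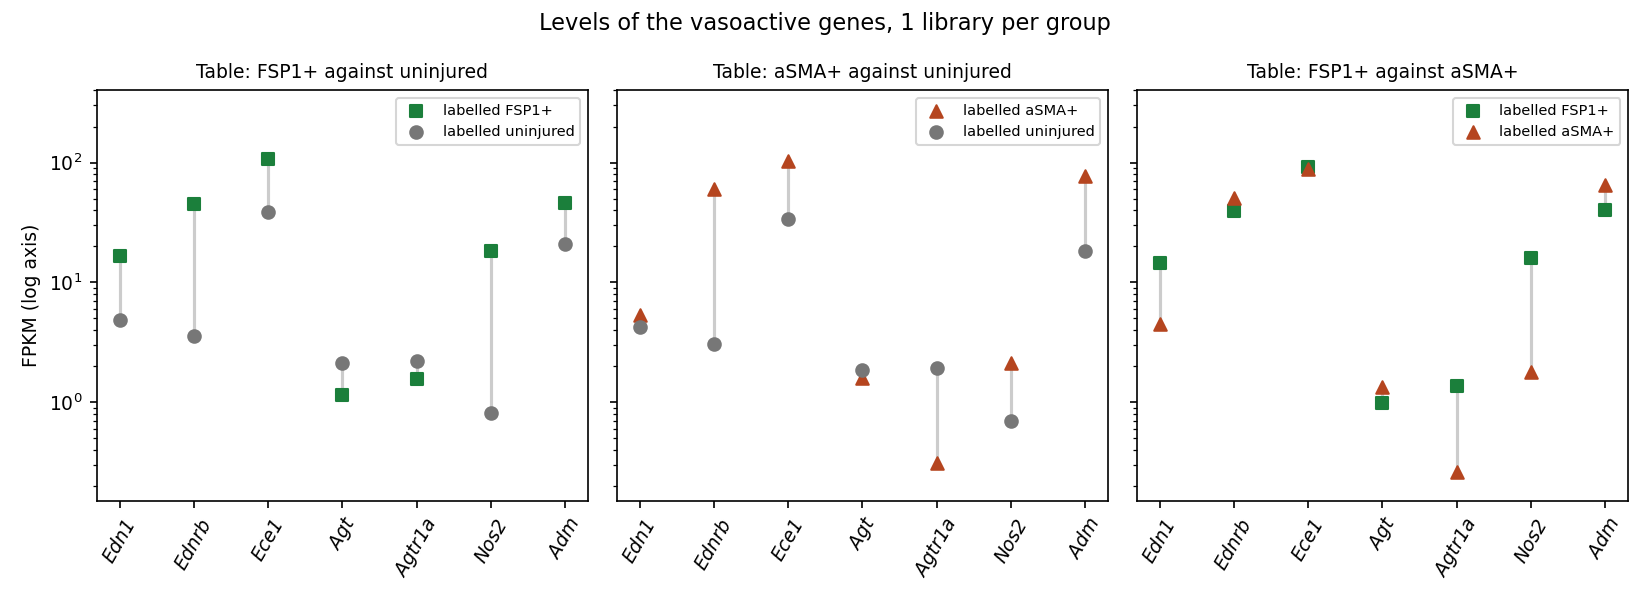
FPKM (log axis) of the 7 genes in each of the 3 tables, with 1 point per library and a grey line joining the libraries compared. Ednrb, Ece1 and Adm lie above the uninjured point in both sorted libraries, Edn1 and Nos2 stand apart from it by at least 2-fold in FSP1+, and Agt and Agtr1a lie at or below 2.22 FPKM in every library. On this axis nothing is added to FPKM. Nos2 (2.11 against 0.701) and Edn1 (5.38 against 4.22) therefore also lie above uninjured in aSMA+, Nos2 by 3.01-fold.

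Edn1 encodes endothelin-1, the main endothelin of blood vessels (chromosome 13, 42301270 to 42307989, plus strand). Its level was 16.6 FPKM in FSP1+ and 4.86 in uninjured, a log2 ratio of 1.59. In the aSMA+ table it was 5.38 in aSMA+ and 4.22 in uninjured, a log2 ratio of 0.29. Directly compared, FSP1+ had 14.5 and aSMA+ 4.54, a log2 ratio of 1.48. Thus the ligand was high in the FSP1+ library, while the aSMA+ and uninjured libraries were close and changed order with the scaling: as TPM, a share of all FPKM in a library, Edn1 was 22.1 in FSP1+, 7.58 in uninjured and 6.25 in aSMA+. An antisense gene, Gm47118, overlaps Edn1, and since use of strand in the counting is not stated, reads from both cannot be told apart.

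Ece1, the membrane protease that cuts big endothelin to its active form (chromosome 4, 137862237 to 137965229), was the most abundant of the 7 genes per length in all 3 libraries. It was measured at 106 FPKM in FSP1+ against 38.7 in uninjured, a log2 ratio of 1.43. Its level in aSMA+ was 104 against 33.5 in uninjured, a log2 ratio of 1.60. The sorted libraries differed little from each other, with 92.5 in FSP1+ and 87.7 in aSMA+, a log2 ratio of 0.08 that went to -0.17 when taken through the uninjured library. On the TPM scale the ratio of aSMA+ to uninjured was 0.99, just under 2-fold. Ece1 overlaps the antisense gene Gm13012.

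Ednrb encodes the endothelin receptor B, which binds all endothelins and clears endothelin-1 from the circulation (chromosome 14, 103814615 to 103844476). The uninjured library held 3.54 FPKM and FSP1+ 45.2, a log2 ratio of 3.35 and 10.2-fold with 1 added. In the other table the uninjured library held 3.07 and aSMA+ 59.8, a log2 ratio of 3.90 and 14.9-fold. These ratios lay above those of 98.0% and 98.4% of the entries kept in the same table. Between the sorted libraries the level was 39.3 in FSP1+ and 50.4 in aSMA+, a log2 ratio of -0.35. The receptor was thus low in the uninjured library and at least 39.3 FPKM in both sorted ones, and the direction against uninjured held at every setting tried, from 2.56 to 3.64 for FSP1+ and from 3.01 to 4.24 for aSMA+. The long non-coding RNA gene Gm35197 overlaps Ednrb, and reads from both may be counted together.

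At the locus of Ednra, the receptor A through which endothelin-1 constricts smooth muscle, 3 entries share the reads. The most abundant entry (uc009mhv.1) had 11.5 FPKM in FSP1+ against 15.8 in uninjured, 6.61 in aSMA+ against 13.7 in uninjured, and 10.0 in FSP1+ against 5.58 in aSMA+. Its log2 ratios were -0.42, -0.95 and 0.75, none of them reaching 2-fold, although the ratio of aSMA+ to uninjured was -1.56 on the TPM scale, -1.17 through the FSP1+ library and -1.04 with 0.1 FPKM added. A second entry (uc009mht.2) was 0.450 in FSP1+ against 5.87 in uninjured, a log2 ratio of -2.24, and 4.63 in aSMA+ against 5.09 in uninjured, a log2 ratio of -0.11. Between the sorted libraries it was 0.392 in FSP1+ against 3.91 in aSMA+, a log2 ratio of -1.82, in the opposite direction to the first entry. With 5 FPKM added, its ratios of FSP1+ to uninjured and to aSMA+ were -0.996 and -0.72, both under 2-fold. The remaining entry (uc009mhs.1) was 1.28 in FSP1+ against 3.49 in uninjured, a log2 ratio of -0.98 that was -1.26 as TPM, and its other ratios were -0.29 and -0.48. Long non-coding RNA genes such as 4933431K23Rik lie in this span, so none of the entries can be given to Ednra alone.

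Agt encodes angiotensinogen, made chiefly by the liver (chromosome 8, 124556587 to 124569707). Its level was 1.14 FPKM in FSP1+ against 2.13 in uninjured, a log2 ratio of -0.55. It was 1.59 in aSMA+ against 1.85 in uninjured, a log2 ratio of -0.14, and 0.992 in FSP1+ against 1.34 in aSMA+, a log2 ratio of -0.23. The precursor was low in every library and did not reach a 2-fold difference in any comparison at any setting tried.

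Agtr1a, the type 1 angiotensin receptor that is the target of sartan drugs (chromosome 13, 30336356 to 30382867), was also low. FSP1+ held 1.56 FPKM and uninjured 2.22, a log2 ratio of -0.33. In aSMA+ it was 0.308 against 1.93 in uninjured, a log2 ratio of -1.16, or 2.24-fold lower with 1 added and 6.24-fold lower with nothing added. FSP1+ held 1.36 against 0.260 in aSMA+, a log2 ratio of 0.90. Agtr1a was therefore lowest in aSMA+, but at these levels the ratio rests on what is added: it was -2.31 for aSMA+ against uninjured with 0.1 FPKM added and -0.38 with 5 added. For FSP1+ against aSMA+ it was 2.02 with 0.1 added and 1.18 as TPM, both past 2-fold. Another annotated gene, Gm48161, overlaps Agtr1a.

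At the Ace locus, where the enzyme that makes angiotensin II from angiotensin I is encoded, 2 entries overlap. The abundant one (uc007lxu.2) had 36.6 FPKM in FSP1+ against 64.2 in uninjured, a log2 ratio of -0.79. It had 65.8 in aSMA+ against 55.5 in uninjured, a log2 ratio of 0.24, and 31.9 in FSP1+ against 55.5 in aSMA+, a log2 ratio of -0.78. This entry was lowest in FSP1+, where its ratio to uninjured fell short of 2-fold but was -1.02 on the TPM scale, and its ratio of FSP1+ to aSMA+ was -1.03 when taken through the uninjured library. The ratio of aSMA+ to uninjured turned to -0.38 on the TPM scale. The second entry at the locus did not exceed 1.45 FPKM.

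Nos2, the inducible nitric oxide synthase known from activated macrophages (chromosome 11, 78920859 to 78960124), was high in the library labelled FSP1+. There it was 18.4 FPKM against 0.810 in uninjured, a log2 ratio of 3.42, or 10.7-fold with 1 added and 22.7-fold with nothing added. In aSMA+ it was 2.11 against 0.701 in uninjured, a log2 ratio of 0.87 that did not reach 2-fold. Compared directly, FSP1+ held 16.0 and aSMA+ 1.78, a log2 ratio of 2.61 and 6.11-fold. As TPM the order was 24.4 in FSP1+, 2.46 in aSMA+ and 1.26 in uninjured. The ratio of aSMA+ to uninjured was 1.47 with 0.1 FPKM added, past 2-fold. No other annotated gene lies in the span of Nos2 or of Agt.

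The Nos3 locus, which encodes the endothelial synthase, holds 3 entries together with Atg9b and the antisense gene Gm15587, and its reads cannot be divided. The most abundant entry (uc008wrd.2) was 48.0 FPKM in FSP1+ against 2.38 in uninjured, a log2 ratio of 3.86. It was 19.0 in aSMA+ against 2.06 in uninjured, a log2 ratio of 2.71, and 41.8 in FSP1+ against 16.0 in aSMA+, a log2 ratio of 1.33. This entry was lowest in uninjured and highest in FSP1+. The next entry (uc033ihy.1) followed the same order, with 4.82 in FSP1+ against 0.267 in uninjured and 1.21 in aSMA+ against 0.231 in uninjured, but with 5 FPKM added its ratio of FSP1+ to uninjured was 0.90. The third stayed below 1 FPKM in every library.

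Adm encodes adrenomedullin, a peptide that widens vessels and protects their barrier (chromosome 7, 110627669 to 110629819). FSP1+ held 45.8 FPKM and uninjured 21.03, a log2 ratio of 1.09 and 2.13-fold with 1 added. In aSMA+ it was 77.7 against 18.2 in uninjured, a log2 ratio of 2.03 and 4.09-fold. The sorted libraries had 39.9 in FSP1+ and 65.5 in aSMA+, a log2 ratio of -0.70. Adm was thus highest in aSMA+ and lowest in uninjured, and on the TPM scale its ratio of FSP1+ to uninjured was 0.88 and with 5 FPKM added 0.97, both under 2-fold. Gm28863 lies antisense to Adm.

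**Figure D2:**
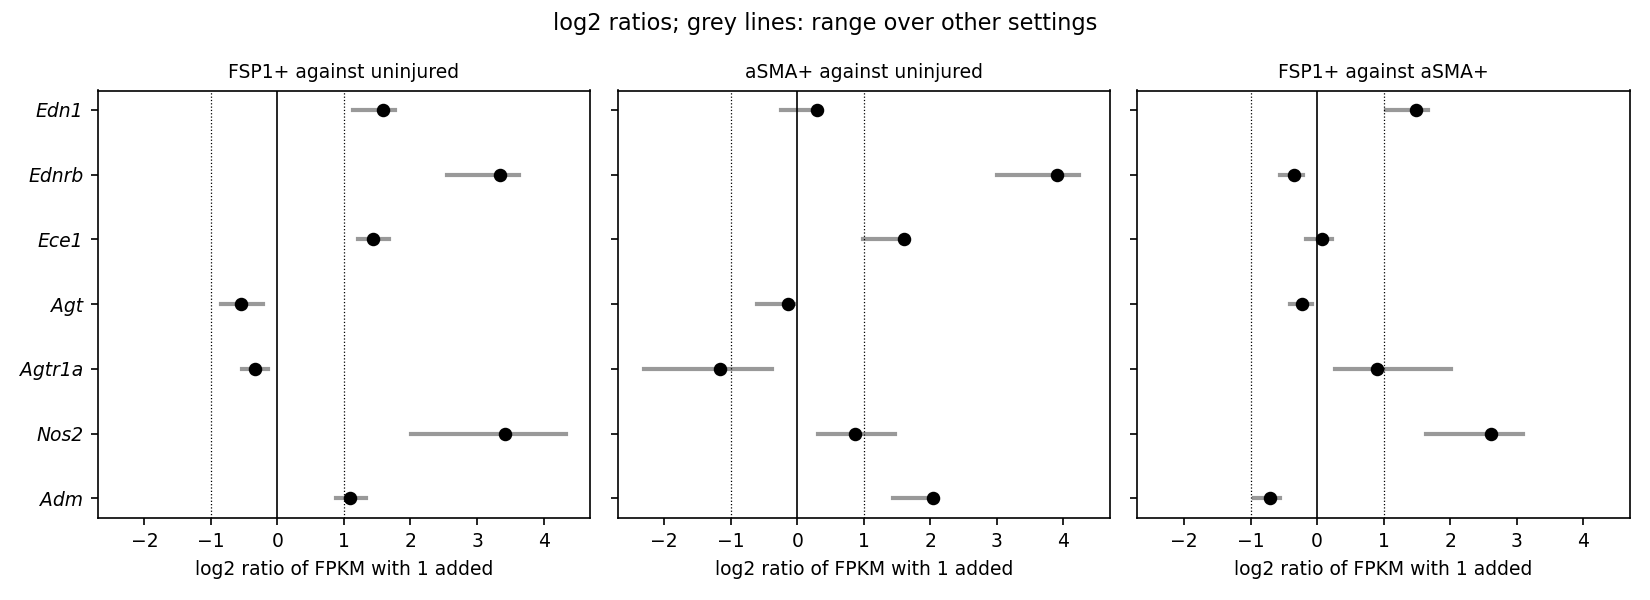
The log2 ratio of FPKM with 1 added for each gene in the 3 comparisons (points), with grey lines for the range over all other settings tried, a solid line at 0 and dotted lines at 2-fold. Ednrb stays beyond 2-fold against uninjured in both sorted libraries and Nos2 in FSP1+, while against uninjured the ranges of Adm in FSP1+ and of Ece1, Nos2 and Agtr1a in aSMA+ cross 2-fold, as does that of Agtr1a in FSP1+ against aSMA+ (0.27 to 2.02).

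The genes fell into several patterns over the libraries. Ednrb, Ece1 and Adm were higher in both sorted libraries than in uninjured, and the sorted libraries were less than 2-fold apart. Edn1 and Nos2 were at least 2-fold higher in FSP1+ than in both other libraries. Agt and Agtr1a were low throughout, and Agtr1a alone of the 7 was at least 2-fold below uninjured in aSMA+. With each library divided by its own sum, the median of all entries kept was -0.24 for FSP1+ against uninjured, -0.48 for aSMA+ against uninjured and 0.13 for FSP1+ against aSMA+, in place of 0.02, 0.05 and 0.04, so ratios on the TPM scale are read beside those medians. With ratios centred on the median of all entries kept, the 3 counts of genes were the same as with the main scaling.

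Among 6146 genes that reached 5 FPKM in 1 library of every table, those whose 3 log2 ratios lay nearest to a member were found by Euclidean distance over the 3 comparisons. Nearest to Edn1 was Rgs10 (distance 0.03), then Dcp2 and Gnai2. The genes nearest to Ednrb were Sele (0.13), Slc11a1 and Sgk1, and those nearest to Nos2 were Fabp5 (0.21), Kank3 and B3gnt3. Ece1 lay nearest to Tpm4 (0.04), Gm43302 and Mcrip2, and Adm to Hpgds (0.03), Sh3bp2 and Syk. Agt had Slc10a1 (0.03), Galnt16 and Bcl2l13 as neighbours, and Agtr1a had Pxmp4 (0.11), Rab3d and Hscb. Such a likeness over 3 libraries is a description only.

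The libraries also differed in markers of other cell types, and these values stand beside the results for Edn1, Ednrb, Nos2 and the Nos3 locus. Of 12 endothelial markers listed, 10 had an entry. All 10 were higher in FSP1+ than in uninjured by 2-fold or more, beside 14.6% of all entries. Between the sorted libraries, 9 were higher in FSP1+ than in aSMA+, beside 19.1%. Their summed level was 1096 FPKM in FSP1+ against 83.9 in uninjured, 256 in aSMA+ against 72.7 in uninjured, and 955 in FSP1+ against 216 in aSMA+. Pecam1, which encodes the CD31 used in the gate, was 157 in FSP1+ against 41.8 in aSMA+, and no endothelial marker was at 0 in any library. Of 12 macrophage markers listed, 9 had an entry. All 9 were higher in both sorted libraries than in uninjured, beside 14.6% of all entries for FSP1+ and 17% for aSMA+. Of the 9, 6 were higher in FSP1+ than in aSMA+, beside 19.1%. The sum of these markers was 3747 in FSP1+ against 86.8 in uninjured, 1408 in aSMA+ against 75.1 in uninjured, and 3263 in FSP1+ against 1188 in aSMA+, again with none at 0. Ptprc, which encodes CD45, was 12.1 in FSP1+ against 9.001 in aSMA+. In bulk RNA, fewer cells of a type and less RNA per cell cannot be told apart, and the part that other cell types have in the vasoactive genes was not tested.

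Pericyte and smooth muscle markers summed to 837 FPKM in FSP1+ against 348 in uninjured and to 232 in aSMA+ against 301 in uninjured, with none of 8 markers at 0. Of the 8, 4 were higher by 2-fold or more and 0 lower in FSP1+ than in uninjured, and 0 were higher and 2 lower in aSMA+. Acta2 (321) and Myh11 (196) gave the largest parts of the FSP1+ sum. Neutrophil markers (5 measured) summed to 188 in FSP1+ against 33.4 in uninjured and to 41.2 in aSMA+ against 29.0 in uninjured. Of the 5, 3 were higher by 2-fold or more and 1 lower in FSP1+ than in uninjured, and 2 were higher and 1 lower in aSMA+. S100a8 (111) and S100a9 (48.2) gave the largest parts of the FSP1+ sum. The lower marker was Cxcr2 in FSP1+ (log2 ratio -1.61) and Retnlg in aSMA+ (-1.11). Cardiomyocyte markers (4 of 8 measured) summed to 37.0 in FSP1+ against 23.0 in uninjured and to 61.3 in aSMA+ against 19.9 in uninjured. Of the 4, 1 was higher in FSP1+ and 3 in aSMA+, with 0 lower in either. Immediate early genes of tissue dissociation were higher in FSP1+ than in uninjured in 10 of 10 cases and in aSMA+ in 8 of 10. Of all entries kept, 14.6% were higher and 16% lower in FSP1+ than in uninjured, and 17% and 7.11% in aSMA+.

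**Figure D3:**
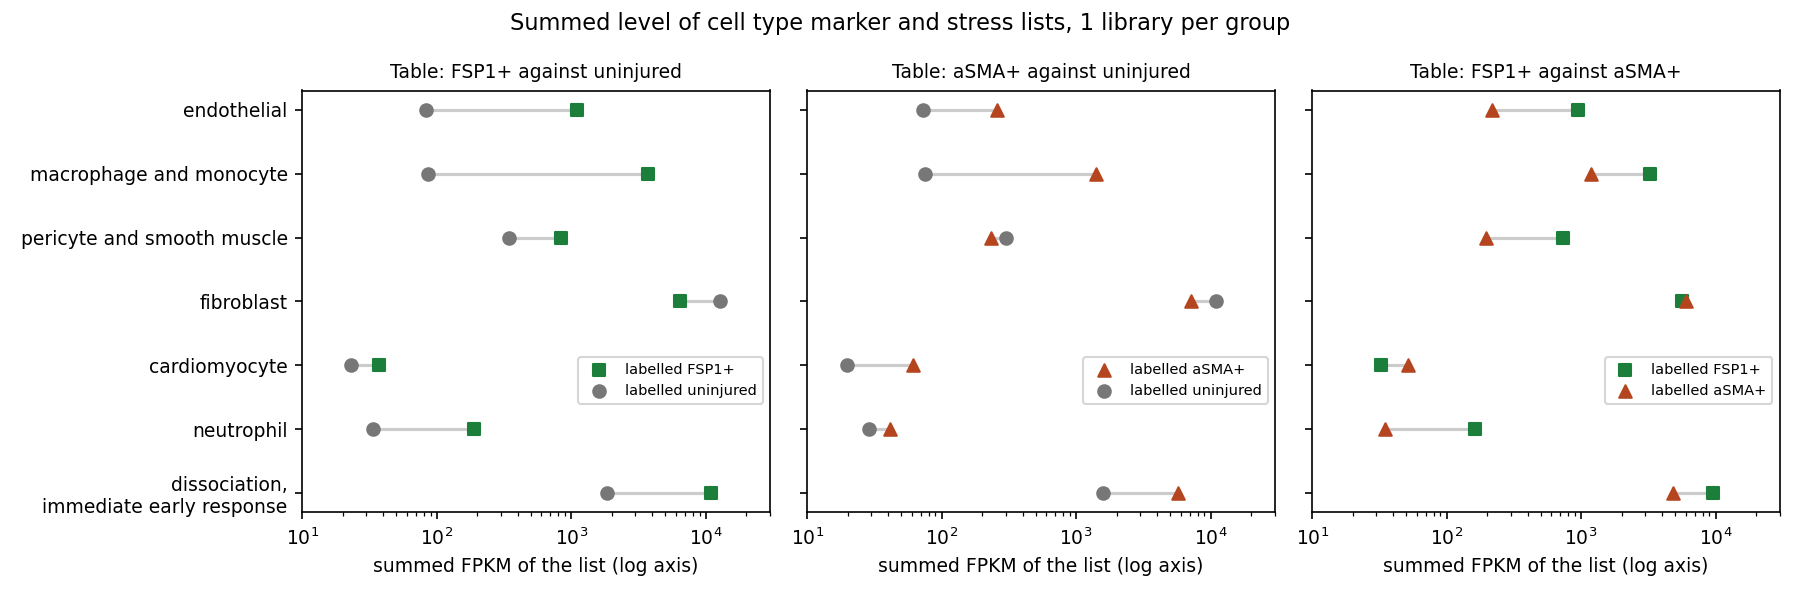
Summed FPKM (log axis) of the measured markers of each cell type list and of the immediate early genes, with 1 point per library in each of the 3 tables. The endothelial and macrophage sums of FSP1+ lie above those of aSMA+, and those of uninjured lie lowest, while the fibroblast sum is highest in uninjured.

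Other genes of the vasoactive pathways were taken from 9 lists of 70 genes, of which 51 had an entry of their own. In FSP1+ against uninjured, 12 of the 39 kept were higher and 5 lower, with a median log2 ratio of 0.20, beside 14.6% and 16% of all entries. In aSMA+ against uninjured, 10 of 41 were higher and 9 lower, with a median of 0.08, beside 17% and 7.11% of all entries. On the TPM scale 7 were higher and 13 lower, beside 9.24% and 20.6% of all entries on that scale. Between FSP1+ and aSMA+, 19 of 41 were higher and 9 lower, beside 19.1% and 14.5% of all entries, with a median of 0.85 against 0.04 for all entries kept.

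Supply of nitric oxide showed the widest spread, with 3 of 9 genes higher and 2 lower than uninjured in each sorted library. Of all entries kept, 14.6% were higher and 16% lower in FSP1+, and 17% and 7.11% in aSMA+. Gch1 makes the cofactor that both synthases need, tetrahydrobiopterin. It was 12.4 FPKM in FSP1+ against 1.22 in uninjured and 44.0 in aSMA+ against 1.06 in uninjured, log2 ratios of 2.59 and 4.45. Arg1, the arginase that competes with Nos2 for arginine, was 28.4 in FSP1+ against 2.22 in uninjured and 24.8 in FSP1+ against 0.930 in aSMA+, log2 ratios of 3.19 and 3.74. In the aSMA+ library the arginine transporters Slc7a1 and Slc7a2 were 20.6 and 28.1, against 2.02 and 6.26 in uninjured. Slc7a2 was 2.62 in FSP1+ against 7.22 in uninjured, a log2 ratio of -1.18 that was -0.68 with 5 FPKM added, so it lay on opposite sides of uninjured in the sorted libraries. Ddah1, which breaks down an inhibitor of the synthases, was 14.5 in FSP1+ against 50.7 in uninjured and 3.39 in aSMA+ against 43.9 in uninjured, log2 ratios of -1.74 and -3.35. Nostrin, a protein that binds Nos3, was 18.3 in FSP1+ against 4.49 in uninjured and 4.17 in aSMA+ against 3.89 in uninjured. Nos2, Arg1 and Nostrin were therefore all highest in FSP1+, whereas Gch1 and both transporters were highest in aSMA+. The most abundant entry at the Nos3 locus, which cannot be given to Nos3 alone, was also highest in FSP1+.

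Downstream of nitric oxide, the guanylate cyclase subunit Gucy1a1 was 30.4 FPKM in FSP1+ against 54.4 in uninjured and 12.0 in aSMA+ against 47.2 in uninjured, log2 ratios of -0.82 and -1.89, the former -1.05 on the TPM scale and so past 2-fold. Its partner Gucy1b1 had log2 ratios of -0.42 and -1.34, the latter -0.87 with 5 FPKM added. Vasp, a target of cGMP-dependent kinase, was 43.3 in FSP1+ against 14.5 in uninjured, a log2 ratio of 1.51. Of the 4 genes of this list measured, 1 was higher in FSP1+ than in uninjured, beside 14.6% of all entries. In aSMA+ 2 of the 4 were lower, beside 7.11%.

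Calcrl, the receptor that adrenomedullin shares with CGRP, was 22.3 FPKM in FSP1+ against 8.61 in uninjured and 26.7 in aSMA+ against 7.47 in uninjured, log2 ratios of 1.28 and 1.71. Ramp2, which turns Calcrl into an adrenomedullin receptor, was 231 in FSP1+ against 120.1 in uninjured and 106 in aSMA+ against 104 in uninjured, log2 ratios of 0.94 (1.19 through the aSMA+ library) and 0.03. The CGRP genes Calca and Calcb were lower in both sorted libraries, with log2 ratios of -2.51 and -1.15 in FSP1+ and of -1.16 and -2.08 in aSMA+. With 5 FPKM added, Calca in FSP1+ alone of these 4 ratios stayed past 2-fold, at -1.29. In all, 2 of 5 genes were higher and 2 lower in FSP1+, beside 14.6% and 16% of all entries. In aSMA+ 1 was higher and 2 were lower, beside 17% and 7.11%. With 1 FPKM added, Adm and Calcrl, ligand and receptor, were thus both at least 2-fold higher in each sorted library. In FSP1+ the ratio of Adm was 0.88 as TPM and 0.97 with 5 FPKM added, both under 2-fold. That of Calcrl was 1.004 with 5 added.

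The remaining endothelin genes were low, and Edn2, Edn3 and Ecel1 stayed below 1 FPKM in all libraries. Mme, the neprilysin that degrades endothelin and natriuretic peptides, was 5.23 FPKM in aSMA+ against 1.69 in uninjured, a log2 ratio of 1.21 (0.81 as TPM and 0.61 with 5 FPKM added), and 1.02 in FSP1+ against 1.95 in uninjured. Among 9 other angiotensin genes with an entry, renin (Ren1), Agtr1b and the chymase Cma1 were below 1 FPKM throughout. Of 5 kept in FSP1+ against uninjured, 0 were higher and 1 lower (Anpep, log2 ratio -1.15), beside 14.6% and 16% of all entries. In aSMA+ 1 of 6 was higher and 1 lower, beside 17% and 7.11%. Agtr2 was 1.94 FPKM in aSMA+ against 0.526 in uninjured, a log2 ratio of 0.94. Atp6ap2, the prorenin receptor, was 93.5 in aSMA+ against 27.8 in uninjured and 36.9 in FSP1+ against 32.0 in uninjured, log2 ratios of 1.71 and 0.20. Agtrap, which promotes uptake of the type 1 receptor, was 3.49 in aSMA+ against 8.24 in uninjured, a log2 ratio of -1.04. With 5 FPKM added, the ratio of Agtrap was -0.64 and that of Agtr1a -0.38, neither reaching 2-fold.

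Of the other peptide systems, the apelin ligand Apln was 30.8 FPKM in FSP1+ against 1.95 in uninjured and 1.45 in aSMA+ against 1.69 in uninjured, log2 ratios of 3.43 and -0.14. Like Nos2 and Edn1, Apln was at least 2-fold higher in FSP1+ than in both other libraries. Of the natriuretic peptide genes, Nppa had no entry of its own. Nppc and Nppb were higher in aSMA+ than in uninjured, at 12.8 against 1.36 and 3.24 against 0.788. Their log2 ratios were 2.54 and 1.25, the latter 0.98 as TPM. Bdkrb1, the inducible kinin receptor, was 4.79 in aSMA+ against 1.07 in uninjured. With 5 FPKM added, the ratio of Nppb was 0.51 and that of Bdkrb1 0.69, under 2-fold. Of 8 measured genes of receptor G proteins, their effectors and their regulators, 6 were higher in FSP1+ than in aSMA+ (Gna11, Plcb4, Rgs2, Rgs3, Rgs4 and Rgs5) and none was lower, beside 19.1% and 14.5% of all entries. Rgs2, which shuts off angiotensin signals, was 10.7 in FSP1+ against 1.95 in uninjured and 1.502 in aSMA+ against 1.69 in uninjured. Rgs4 and Rgs5 were 28.7 and 53.1 in FSP1+ against 6.25 and 24.9 in aSMA+, log2 ratios of 2.04 and 1.07, the latter 0.83 when taken through the uninjured library. Rgs5 also stands on the pericyte and smooth muscle list, of which 7 of 8 markers were higher in FSP1+ than in aSMA+.

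**Figure D4:**
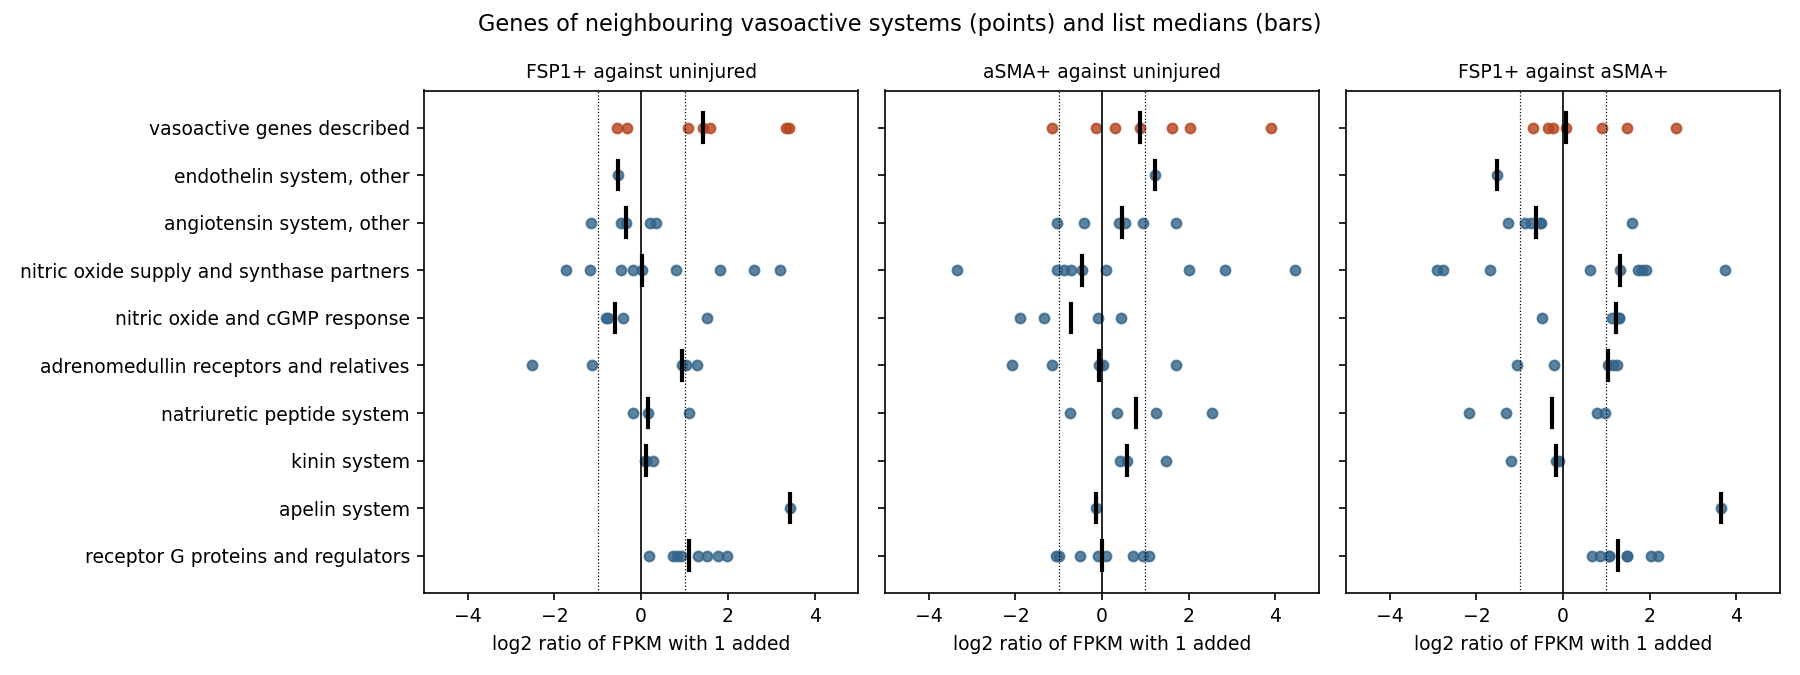
The log2 ratio of FPKM with 1 added for each gene kept of the 7 vasoactive genes and of the 9 other lists (points), with the median of each list as a bar and dotted lines at 2-fold. The nitric oxide supply list spans from -3.35 to 4.45 in aSMA+ against uninjured, and the receptor G protein list has its median at 1.26 in FSP1+ against aSMA+.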

How the data were processed

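RNA of 3 libraries, 1 for each group, was sequenced from a stranded mRNA kit. The authors used the Tuxedo Suite for alignment to GRCm38 and Cuffdiff for gene levels (version not given in the sources used here), and the values deposited are FPKM in 3 tables of 2 libraries, each table with a scaling of its own. The same library differed between its tables by a factor of 1.15 to 1.19, so each ratio was taken within 1 table. The tables also hold the authors' own log2 fold changes, test statistics, p-values and q-values, which were not used. An offset of 0.001 FPKM added before deposit was removed.

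Entries carry UCSC transcript identifiers and positions. A symbol was given to an entry with no other entry at its locus if a gene of RefSeq (GRCm38.p6) or GENCODE M21 shared 0.8 or more of the joint span and every other gene less than 0.7, which named 17657 of 31930 entries and left 8265 entries of shared loci unnamed. Ratios are log2 of FPKM with 1 added, for entries of at least 1 FPKM in either library, and 2-fold was the limit for a count. TPM is FPKM rescaled so that each library has the same sum. The commonest step among the smallest FPKM values put a read at 1.56 times the FPKM in uninjured that it had in FSP1+, and at 1.01 times that in aSMA+. These steps held 32.1% and 41.8% of the entries with such values, so the order of depth is an estimate only. By that estimate uninjured and aSMA+ would be the shallower libraries, and low values there the less precise. The ratio code was tested on simulated data.

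The genes named are the 10 listed, genes of lists of 12 or fewer, the 3 genes nearest to each member in pattern, S100a4 and Acta2. The members and lists were chosen with earlier results of these data known. Alternatives were 0.1 or 5 FPKM added, no filter, a minimum of 5 FPKM in either library, a minimum of 1 in both, ratios centred on the median, TPM, ratios through the third library and a 4-fold limit. Promoter sequences were from RefSeq, where 7 of 10 genes matched. Tools were Python 3.11.15, NumPy 2.4.6, pandas 2.3.3 and, for plots, matplotlib 3.10.9.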

Additional observations from a re-analysis of the deposited data

Results flagged for a closer look

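Slc7a2, an arginine transporter, lay on opposite sides of the uninjured library by at least 2-fold: its log2 ratio over uninjured was -1.18 in the library labelled FSP1+ (2.62 against 7.22 FPKM) and 2.0 in the library labelled aSMA+ (28.1 against 6.26 FPKM). With 1 library per group the difference between these ratios was not tested. With 5 FPKM added the ratio in FSP1+ was -0.68, and taken through the third library it was -0.91.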

How the results depend on the processing

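With 1 library per group, no library could be left out and no replicate error set against a change of setting. No paired analysis was possible because each group has 1 library and the labels give no replicate numbers. Of the alternative values of the member ratios, 144 moved by no more than 1.5 times and 12 by more, and none at or past 2-fold changed sign. Settings that change only the minimum FPKM leave each ratio as it was, so part of the 144 could not have moved. Centring on the median shifted every ratio of a comparison by the same small amount. At a 4-fold limit 2 members were higher in FSP1+ than in uninjured, beside 5.23% of all entries kept. Between the sorted libraries 1 was higher in FSP1+ than in aSMA+, beside 4.03%. In aSMA+ against uninjured, Ednrb and Adm were higher by that fold (log2 ratios of 3.90 and 2.03), beside 5.81%, and 0 were lower, beside 1.62%. The lower count of aSMA+ against uninjured, which is Agtr1a, was also 0 with 5 FPKM added, with at least 5 FPKM in either library and with at least 1 FPKM in both. Its level, 0.308 FPKM in aSMA+ and 1.93 in uninjured, passed neither of these minimums. Counts of the other pathway genes moved most with 5 FPKM added: 2 lower in FSP1+ against uninjured, 6 higher and 2 lower in aSMA+ against uninjured, and 5 lower in FSP1+ against aSMA+. The shares of all entries kept at that setting were, in the same order, 4.2%, 11.6%, 2.9% and 6.36%. The lower count in FSP1+ against uninjured was 8 as TPM and 3 through the third library, beside 22.6% and 10.7% of all entries, and the cause was not tested.

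The split of all entries into higher and lower depended on the scaling. It was 2565 to 2820 in FSP1+ against uninjured, 2160 to 4295 as TPM and 3374 to 1876 through the third library. In aSMA+ against uninjured it was 2924 to 1224, 1744 to 3885 as TPM and 2313 to 1809 through the third library. For FSP1+ against aSMA+ it was 3135 to 2376 and 2460 to 3454 through the third library, which moved the medians of all entries to 0.22, -0.16 and -0.17 in the 3 comparisons.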
